A study of Mus musculus with 3 samples.

Results

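The integrin chains other than the CD103 pair were followed in cultured mouse CD8+ T cells, the lineage that kills infected and tumour cells. They are 10 of the 17121 genes in the deposited table, chosen by gene symbol. The alpha chains are Itga1, Itga2, Itga4, Itga6, Itgal and Itgav, and the beta chains are Itgb1, Itgb2, Itgb3 and Itgb8. Itgae, which encodes CD103, and Itgb7, which encodes its beta partner, form the CD103 pair and are not among the 10. RNA came from CD8+ T cells of spleen and lymph node of wild-type mice on day 3 of culture. The aged TRM sample, from mice of 18 months, and the young TRM sample, from mice of 6 weeks, received 1 µg/ml of anti-CD3 and anti-CD28 together with 20 ng/ml of IL-15 and 5 ng/ml of TGF-beta, the condition the labels call TRM after tissue-resident memory T cells. The young TCR sample, from mice of 6 weeks, received the antibodies alone, so that all 3 samples were stimulated through the T cell receptor (TCR). The sources used here give neither the strain and sex of the mice nor whether animals were pooled. Aged cells given the antibodies alone were not analysed here, so age could be compared only under the added cytokines.

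Integrins are surface receptors made of an alpha and a beta chain, and a chain without its partner does not reach the cell surface. In resting T cells they are held in a bent, weakly binding form. Signals from the T cell receptor or chemokine receptors, passed on by the small GTPase Rap1, by talin and by kindlin, open them, after which they grip ligands on other cells or in the matrix. Itgal and Itgb2 encode LFA-1, which binds ICAM proteins. Itgb1 is the common partner of the alpha chains encoded by Itga1 and Itga2, which bind collagen, Itga4, which binds VCAM-1 and fibronectin, and Itga6, which binds laminin. Itgav pairs with Itgb3 to bind vitronectin and osteopontin, and with Itgb8 to release active TGF-beta from its latent complex.

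The labels give 1 sample per group, and each sample has 2 numbered columns whose meaning they do not state. The columns were taken as repeats of the same sample, so no difference could be set against variation between mice or cultures, and no p-value was computed. Totals ranged from 36021887 to 40385477 reads per sample. Levels are given in CPM, counts scaled to library size with trimmed-mean (TMM) factors, and, wherever 2 genes are compared, in TPM, which also divides by transcript length. Intervals are 95% counting intervals and cover counting error only, and reads without molecular identifiers are not independent molecules. The words rose and fell are kept for genes at least 2-fold apart on the scale of CPM plus 1 whose counting interval of the ratio excluded 1. Only genes that reached 1 CPM in at least 1 of the samples compared were assessed. All 9 markers of CD8 T cells were present, from 119.9 CPM upward in aged TRM, from 111 CPM upward in young TRM and from 176 CPM upward in young TCR. Most of them, such as the CD3 genes, are shared with other T cells. Cd8a had 1822 CPM in young TRM, against 747 CPM in young TCR, and rose. Cd8b1 had 593 CPM, against 424 CPM, within 2-fold.

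Per length, the chains of LFA-1 were the most abundant of the 10 in every sample. Itgb2 stood at 299.7 TPM in aged TRM, 275 TPM in young TRM and 263 TPM in young TCR, followed by Itgal at 226, 195 and 226 TPM in the same samples and by Itgb1 at 123, 111 and 180 TPM. Below these the order differed between the samples. In young TCR Itgb3 came next, at 89.2 TPM, above Itga4, Itga6 and Itgav. In young TRM Itgb3 stood at 10.9 TPM, behind Itga4 (32.5 TPM), Itga6 (21.9 TPM) and Itgav (20.5 TPM), and in aged TRM it stood at 14.1 TPM, behind the same 3 chains, with Itgav at 37.4 TPM directly after Itgb1. Itga1 and Itga2 were scarce everywhere, and Itga1 stood above Itga2 in both TRM samples but below it in young TCR. In all 3 samples the columns of neighbours in this order did not overlap, although columns of 1 sample do not show the spread between mice.

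**Figure D1:**
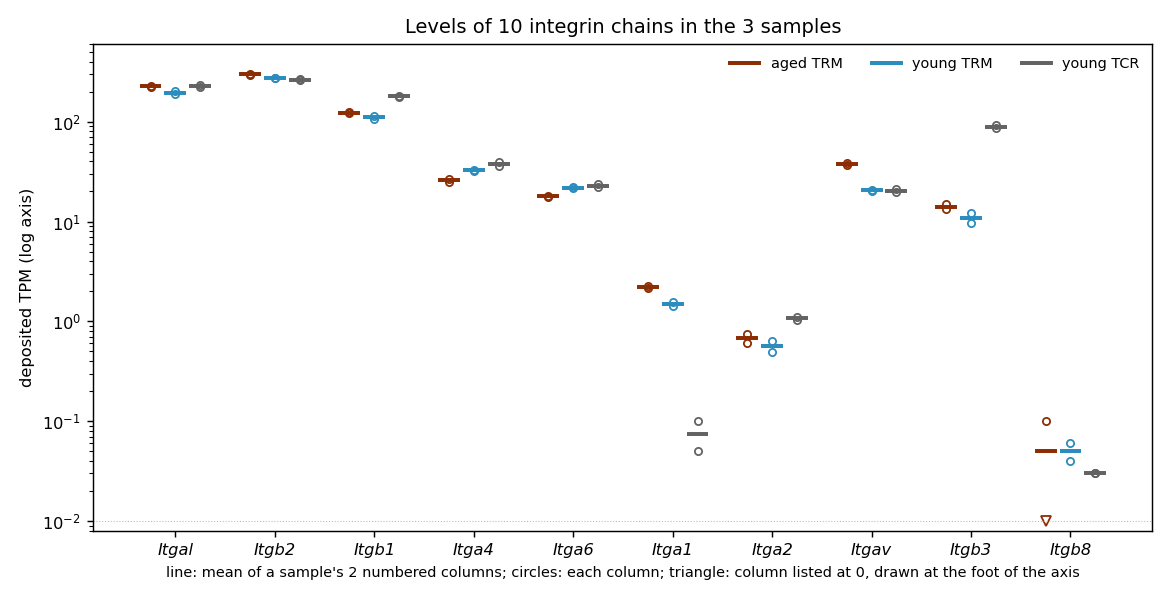
Deposited TPM (log axis) of the 10 chains in aged TRM, young TRM and young TCR, where lines are means of a sample's 2 numbered columns, circles are the columns and the triangle is a column listed at 0. Itgb3 lies at 89.2 TPM in young TCR and at 14.1 and 10.9 TPM in aged TRM and young TRM. Itga1 lies lower in young TCR than in both TRM samples, and the LFA-1 chains lie above the others in each sample.

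The comparison of young TRM with young TCR set cells with added IL-15 and TGF-beta beside cells given the antibodies alone, 1 sample each. Itgb3 fell and Itga1 rose, and the other assessed chains stayed within 2-fold of their level. Of the 10 chains 9 reached 1 CPM in at least 1 of these samples, Itga1 in young TRM alone. Among the 9 there was 1 higher and 1 lower chain, where 4.18% of the 11588 genes tested were higher and 3.6% lower, together 7.78%. The median log2 ratio of the 9 was -0.20, against 0.02 over all genes tested. In bulk RNA, fewer cells that express a gene and less RNA in each cell cannot be told apart.

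Itgb3, the beta chain of the vitronectin receptor, had 31.9 CPM in young TRM, against 263 CPM in young TCR. Its columns, each scaled on its own, held 35.4 and 28.9 CPM in young TRM, against 261 and 269.8 CPM in young TCR, with no overlap. It was 8.25-fold lower (interval 7.76 to 8.78), and its log2 ratio was the 12th lowest of the 11588. In aged TRM it had 40.6 CPM, also far under young TCR. Its alpha partner Itgav had 75.0 CPM in young TRM, against 74.1 CPM in young TCR, a ratio of 1.01 (0.961 to 1.07) whose direction turns with the scaling. Thus Itgav held 1.88 times the TPM of Itgb3 in young TRM, against 0.229 times in young TCR, and 2.65 times in aged TRM. The other alpha partner of Itgb3, the platelet chain Itga2b, had 2.44 CPM in young TRM, against 4.96 CPM in young TCR.

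Itgb3 is also abundant on platelets. The 10 markers of platelets and megakaryocytes summed to 8.40 CPM in young TRM, against 21.5 CPM in young TCR, and to 12.8 CPM in aged TRM. Over all genes tested in young TRM against young TCR, 4.18% were higher and 3.6% lower. Of the platelet markers 5 were tested there, of which 0 rose and 2 fell. These were the platelet granule chemokines Ppbp, with 0.482 CPM in young TRM, against 6.22 CPM in young TCR, and Pf4, with 0.653 CPM, against 2.79 CPM. Per length, Pf4 was the highest of the markers in young TRM, with 2.325 TPM, against 10.04 TPM in young TCR. Gp1ba, with 1.74 TPM in young TRM, had 4.12 CPM there, against 3.996 CPM in young TCR. Gp9, a defining platelet glycoprotein, had 0 reads in young TRM, against 11 reads in young TCR. Markers of B and plasma cells also stood lower, with 7 of 8 tested that fell and 0 that rose, a median log2 ratio of -1.74 and a sum of 18.3 CPM in young TRM, against 54.0 CPM in young TCR. The B cell surface gene Ms4a1 had 0.426 CPM in young TRM, against 7.40 CPM in young TCR, while Cd79b had 12.9 CPM, against 15.5 CPM. In aged TRM this sum was 26.8 CPM. Of 8 markers 3 rose in aged TRM against young TRM, where 2.25% of all genes tested were higher. The part of platelets and B cells in the level of Itgb3, or of the other genes described here, was not tested.

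Itga1 encodes CD49a, a collagen receptor chain found on many tissue-resident memory CD8+ T cells. It had 160 reads in young TRM, or 4.54 CPM, against 9 reads, or 0.222 CPM, in young TCR. Its columns held 4.66 and 4.41 CPM in young TRM, against 0.299 and 0.149 CPM in young TCR. The ratio was 20.5 (10.5 to 45.6), and the wide interval reflects the 9 reads of young TCR. On the scale with a pseudocount of 1 the log2 ratio was 2.18, and with a pseudocount of 5 it was 0.87, under the 2-fold limit. Itga2, which encodes CD49b, the other collagen-binding chain of the set, had 2.07 CPM in young TRM, against 3.87 CPM in young TCR (log2 ratio -0.67). Markers of NK and innate lymphoid cells, some of which carry CD49a or CD49b, summed to 102 CPM in young TRM, against 36.9 CPM in young TCR. Of the 10 markers 5 rose and 0 fell, where 4.18% of all genes tested were higher and 3.6% lower. On the CPM scale Kit made up most of the sum in both samples, with 78.4 and 29.6 CPM. Per length Kit had 29.5 TPM in young TRM and 11.2 TPM in young TCR, followed by Fcer1g with 14.2 and 3.92 TPM. The defining NK receptor Ncr1 had 2.19 CPM in young TRM, against 0.0493 CPM in young TCR. The part of such cells in the level of Itga1 was not tested.

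Itga1 and Itga2 lie side by side on chromosome 13 and are read in the same direction. In the RefSeq annotation of GRCm38.p6, Itga1 (gene ID 109700) spans positions 114958079 to 115101964 and Itga2 (gene ID 16398) spans positions 114833081 to 114932100. In the GENCODE M21 annotation of the same assembly 20995 bases separate them, and 1 predicted gene lies in the gap. The sequences before their starts are shown because these neighbours, which share the partner Itgb1, had opposite orders in the samples, and that of Itgb1 is shown beside them. Each is the 250 bases before the annotated start, from RefSeq on GRCm38.p6, read 5′ to 3′ along the gene. They lie at chr13:115101965-115102214 (minus strand) for Itga1, chr13:114932101-114932350 (minus strand) for Itga2 and chr8:128685404-128685653 (plus strand) for Itgb1. Capitals mark matches, on either strand, to CAGAC, the SMAD box bound by the transcription factors of TGF-beta signalling, or to GGGCGG, the GC box.
Itga1: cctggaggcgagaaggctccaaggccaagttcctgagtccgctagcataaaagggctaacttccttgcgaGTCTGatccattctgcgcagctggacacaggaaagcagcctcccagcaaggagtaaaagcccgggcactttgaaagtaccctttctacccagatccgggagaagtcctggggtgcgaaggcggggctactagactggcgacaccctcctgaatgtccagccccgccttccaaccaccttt
Itga2: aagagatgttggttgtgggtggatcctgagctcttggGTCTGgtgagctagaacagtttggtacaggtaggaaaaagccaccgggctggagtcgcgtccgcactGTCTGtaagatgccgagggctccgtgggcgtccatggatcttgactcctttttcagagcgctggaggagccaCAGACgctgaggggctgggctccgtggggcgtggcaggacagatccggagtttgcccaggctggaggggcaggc
Itgb1: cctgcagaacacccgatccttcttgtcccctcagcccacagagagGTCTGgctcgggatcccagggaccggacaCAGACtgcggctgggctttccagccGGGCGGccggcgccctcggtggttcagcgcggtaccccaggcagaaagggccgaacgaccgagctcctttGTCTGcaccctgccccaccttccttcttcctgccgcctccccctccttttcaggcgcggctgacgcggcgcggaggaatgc
The 3 sequences held 57.6%, 60.8% and 68% G and C. Itga1 had 1 SMAD box, Itga2 had 3, and Itgb1 had 3 as well as 1 GC box. These letters are common: 42.2% of the 32851 upstream windows of the same length in the RefSeq table held the SMAD box and 32.7% the GC box on either strand. The AP-1 site, written TGANTCA, was found on either strand in 6.75% of those windows. The RUNX core, written TGTGGT, was found on either strand in 14.1% of them, and neither was found in the 3 windows shown. No match overlapped another in these windows. A match describes the letters of a window, and binding was not measured. Promoter entries were found for 6 of the 10 chains.

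Itgb1, the beta chain that Itga1, Itga2, Itga4 and Itga6 share, had 239 CPM in young TRM, against 385 CPM in young TCR. Its columns held 226 and 248 CPM in young TRM, against 389 and 388 CPM in young TCR. These columns did not overlap, although columns of 1 sample do not show the spread between mice. The Itgb1 ratio of 0.622 (0.605 to 0.638) lay within 2-fold. Its summed alpha partners, 12 chains in all, came to 90.8 TPM in young TRM and 97.7 TPM in young TCR. This sum counts Itgav, which also pairs with Itgb3 and Itgb8, with 20.5 and 20.4 TPM in the same samples. Itga4, which pairs with Itgb1 or with Itgb7, had 165 CPM in young TRM, against 189.5 CPM in young TCR (log2 ratio -0.20). Itga6 had 67.0 CPM in young TRM, against 69.6 CPM in young TCR (log2 ratio -0.05).

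LFA-1, which steadies the contact between a killer cell and its target, was nearly level. Itgal had 519.5 CPM in young TRM, against 599.6 CPM in young TCR, a ratio of 0.866 (0.850 to 0.883). Itgb2 had 397 CPM in young TRM, against 377 CPM in young TCR, a ratio of 1.05 (1.03 to 1.08). Both intervals exclude 1 at this depth, and neither ratio exceeded the 2-fold limit. Per length, Itgal held 0.711 times the TPM of Itgb2 in young TRM and 0.861 times in young TCR. Itgb8 was near the limit of counting, with 3 reads in aged TRM, 3 in young TRM and 2 in young TCR, so no ratio is given.

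**Figure D2:**
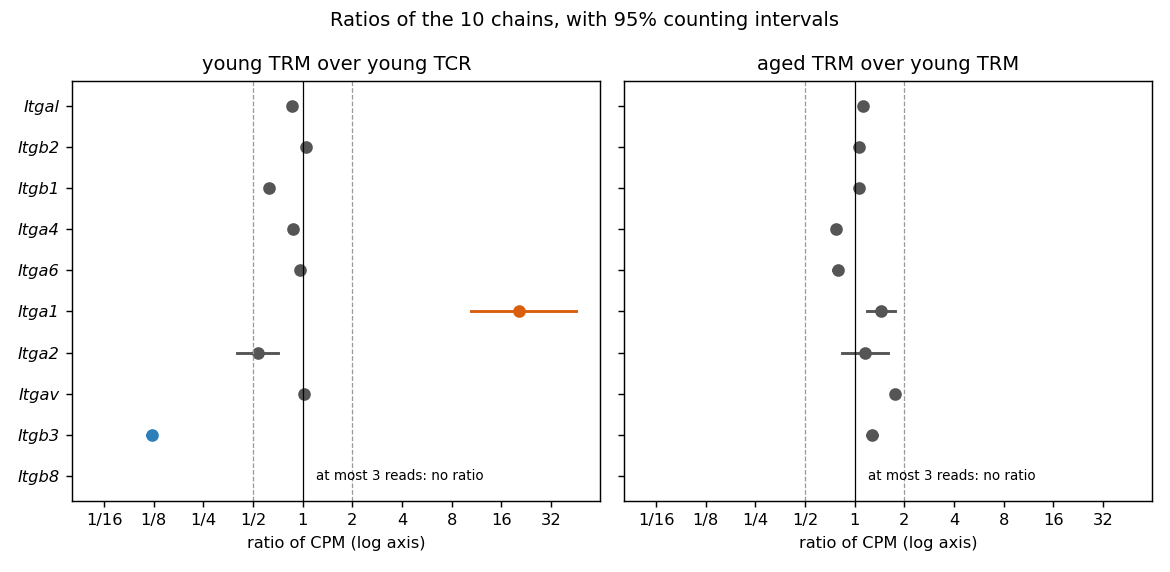
Ratio of CPM (log axis) for each chain in young TRM over young TCR and in aged TRM over young TRM, where points are ratios, bars are 95% counting intervals and dashed lines mark 2-fold. Itga1 lies at 20.5 and Itgb3 at 1/8.25 on the left, and on the right no chain passes 2-fold, with Itgav nearest at 1.76.

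The makeup of the chains was set side by side with that of the CD103 pair. Of the summed TPM of the 10 chains, 669 TPM in young TRM and 841 TPM in young TCR, Itgb3 held 1.62% in young TRM and 10.6% in young TCR. Itgb1 held 16.6% in young TRM and 21.4% in young TCR, and Itgb2 held 41.1% in young TRM and 31.3% in young TCR. Itgb2 itself had 275 TPM in young TRM and 263 TPM in young TCR, so its larger share goes mainly with the smaller sum. Itgb7, the beta partner of CD103 and, in the gut-homing receptor, of Itga4, had 301 TPM in young TRM, against 165 TPM in young TCR. It stood at 2.72 times the TPM of Itgb1 in young TRM, at 0.915 times in young TCR and at 1.51 times in aged TRM. Itgae, which encodes CD103, reached 1.54 times the TPM of Itgal in young TRM, against 0.0197 times in young TCR, and 0.729 times in aged TRM.

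**Figure D3:**
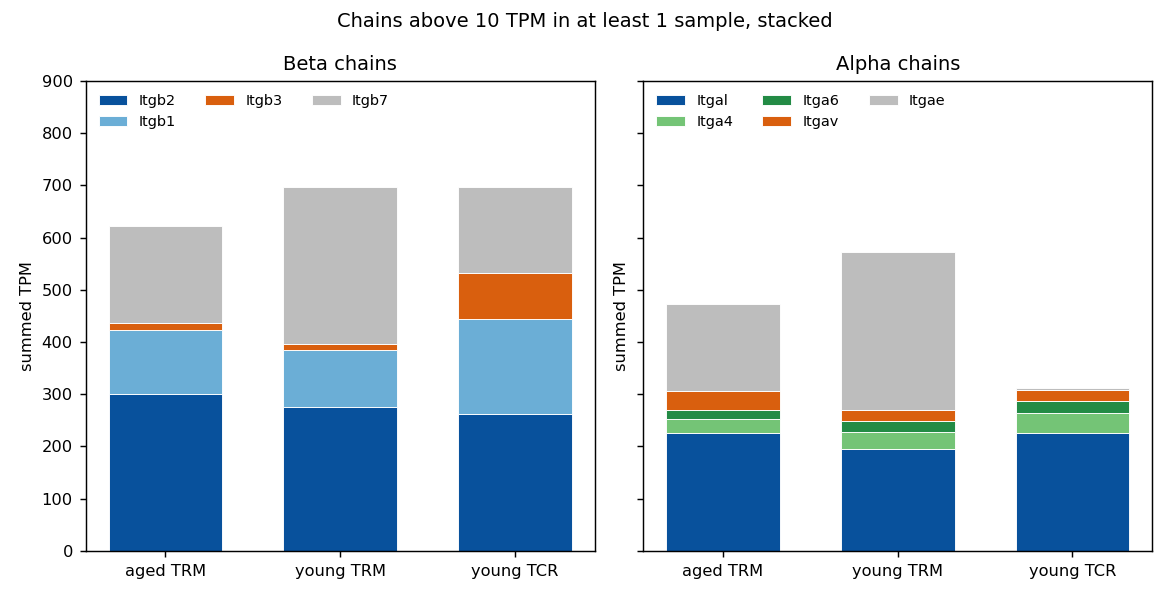
Summed TPM of the beta chains and of the alpha chains above 10 TPM in at least 1 sample, stacked for aged TRM, young TRM and young TCR. The CD103 pair, Itgb7 and Itgae, is in grey. Itgb3 takes 89.2 TPM of the beta stack in young TCR and 10.9 TPM in young TRM, while Itgb7 takes 165 and 301 TPM in the same samples.

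Age was compared between aged TRM and young TRM, under the same antibodies and cytokines. None of the 9 chains assessed rose or fell, where 2.25% of the 11575 genes tested were higher and 1.15% lower, together 3.4%. Their median log2 ratio was 0.14, against -0.01 over all genes tested. The chain nearest the limit was Itgav, with 132 CPM in aged TRM, against 75.0 CPM in young TRM. Its columns held 128 and 136 CPM in aged TRM, against 75.0 and 74.5 CPM in young TRM, and the ratio was 1.76 (1.68 to 1.85). Its log2 ratio of 0.81 was the 409th highest of the 11575. The level in aged TRM was also above the 74.1 CPM of young TCR, so that both young samples lay close together and aged TRM above them.

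The partner Itgb3 had 40.6 CPM in aged TRM, against 31.9 CPM in young TRM, a ratio of 1.27 (1.18 to 1.37). Its columns, 42.6 and 38.3 CPM in aged TRM against 35.4 and 28.9 CPM in young TRM, did not overlap but lay close. Itga1 had 6.54 CPM in aged TRM, against 4.54 CPM in young TRM, a ratio of 1.44 (1.18 to 1.76), from 266 and 160 reads. Itga2 had 2.39 CPM in aged TRM, against 2.07 CPM in young TRM, with an interval of 0.841 to 1.58 that held 1. Itgb1 had 256 CPM in aged TRM, against 239 CPM in young TRM (1.07, 1.04 to 1.10).

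Itga4 and Itga6 stood lower in aged TRM within 2-fold. Itga4 had 126 CPM in aged TRM, against 165 CPM in young TRM (0.765, 0.736 to 0.794), and 189.5 CPM in young TCR. Itga6 had 52.8 CPM in aged TRM, against 67.0 CPM in young TRM (0.787, 0.742 to 0.835). The last exons of Itga4 overlap Cerkl on the other strand over 8.04% of its exonic bases, and the sources used here do not say whether counting used strand. Cerkl had 4.43 CPM in aged TRM, 3.80 CPM in young TRM and 3.33 CPM in young TCR. Itgav shares 5.90% of its exonic bases with Gm13684 on the other strand, and Itga1 shares 3.68% with Gm49395 on the same strand, so reads from these stretches may not be told apart. Itgal had 583 CPM in aged TRM, against 519.5 CPM in young TRM (1.12, 1.10 to 1.14), and Itgb2 had 419.7 CPM, against 397 CPM (1.06, 1.03 to 1.08). Of the CD103 pair, Itgae had 320.1 CPM in aged TRM, against 605 CPM in young TRM (log2 ratio -0.92), and Itgb7 had 245 CPM, against 410.04 CPM (log2 ratio -0.74), neither past 2-fold.

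Of 14 further integrin chains, 7 reached 1 CPM in each comparison. Over all genes tested, 4.18% were higher and 3.6% lower in young TRM against young TCR. In aged TRM against young TRM these shares were 2.25% and 1.15%. In young TRM against young TCR 0 rose and 1 fell, Itgax, a chain of myeloid cells and some activated T cells, with 3.55 CPM in young TRM, against 8.63 CPM in young TCR. Itga5, the fibronectin receptor chain, had 15.3 CPM in young TRM, against 7.75 CPM in young TCR (log2 ratio 0.90). In aged TRM against young TRM 0 rose and 1 fell, Itga7, a laminin receptor chain, with 4.13 CPM in aged TRM, against 10.8 CPM in young TRM. Itga7 had 18.3 CPM in young TCR. Itga3, another laminin receptor chain, had 7.26 CPM in aged TRM, against 3.21 CPM in young TRM (log2 ratio 0.97). With 6.29 CPM of Itga3 in young TCR, young TRM was the lowest of the 3 samples. The call of Itgax ended with the deposited TPM (log2 ratio -0.93) and with a pseudocount of 5 (-0.67), and that of Itga7 with a pseudocount of 5 (-0.79).

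Genes of integrin activation and its adaptors, among them brakes as well as activators, were assessed as a list of 44 genes. Of 42 tested in young TRM against young TCR, 2 rose and 1 fell, with a median log2 ratio of 0.18, where 4.18% of all genes tested were higher and 3.6% lower. Rap1gap2, which switches Rap1 off, had 12.6 CPM in young TRM, against 2.44 CPM in young TCR, and Rapgef6, which switches Rap1 on, had 356 CPM, against 174 CPM. Dok2, an adaptor of receptor signalling, fell to 55.3 CPM in young TRM, against 149.7 CPM in young TCR. The talin gene Tln1 (522 against 450 CPM) and the kindlin gene Fermt3 (222 against 287 CPM) stayed within 2-fold. Of 40 tested in aged TRM against young TRM, 0 rose and 2 fell, where 1.15% of all genes tested were lower. The list median was -0.07. Rap1gap2 had 2.48 CPM in aged TRM, against 12.6 CPM in young TRM, and Rasa3, another brake on Rap1 and Ras, had 123 CPM, against 263 CPM. Both comparisons use the young TRM sample, so the rise and the fall of Rap1gap2 are not independent. The rise of Rapgef6 ended with scaling by totals only (log2 ratio 0.98).

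Of 30 integrin ligands 28 were listed and 13 tested in each comparison. In young TRM against young TCR 2 rose and 2 fell, where 4.18% of all genes tested were higher and 3.6% lower. The list median was -0.36. The laminin chain Lama5 had 16.3 CPM in young TRM, against 5.35 CPM in young TCR, and Icam1, the ligand of LFA-1, had 132 CPM, against 64.9 CPM. Thrombospondin, Thbs1, had 1.05 CPM in young TRM, against 3.72 CPM in young TCR, and Icam5 had 0.681 CPM, against 2.44 CPM. In aged TRM against young TRM the median was 0.35. There 1 gene rose and 0 fell, where 2.25% of all genes tested were higher. That gene was Spp1, which encodes osteopontin, a ligand of alpha-v integrins, with 146 CPM in aged TRM, against 37.3 CPM in young TRM and 54.8 CPM in young TCR. The call of Icam1 ended with totals only (log2 ratio 0.96), a pseudocount of 5 (0.97) and column 2 alone (0.98). Those of Lama5 (0.99), Thbs1 (-0.72) and Icam5 (-0.84) ended with the deposited TPM, those of Thbs1 (-0.53) and Icam5 (-0.39) with a pseudocount of 5, and that of Icam5 (-0.91) also with column 2 alone.

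Latent TGF-beta is held for alpha-v integrins by binding proteins, of which 6 of 9 listed genes were tested in each comparison. In young TRM against young TCR 1 rose and 2 fell, where 4.18% of all genes tested were higher and 3.6% lower. Lrrc32, which encodes GARP, the surface anchor of latent TGF-beta on regulatory T cells, had 22.4 CPM in young TRM, against 10.4 CPM in young TCR. Ltbp3, a binding protein that carries latent TGF-beta to the matrix, had 1.56 CPM, against 5.90 CPM, and Tgfb3 itself had 5.90 CPM, against 14.1 CPM. In aged TRM against young TRM 2 rose and 1 fell, where 2.25% of all genes tested were higher and 1.15% lower. Lrrc32 had 7.28 CPM in aged TRM, against 22.4 CPM in young TRM. Ltbp3 had 5.07 CPM, against 1.56 CPM, and Tgfb3 had 15.9 CPM, against 5.90 CPM. Both comparisons use the young TRM sample, so the 2 directions are not independent. Foxp3, the factor that defines regulatory T cells, had 3.71 CPM in aged TRM, 33.6 CPM in young TRM and 1.95 CPM in young TCR. It is 1 of 6 listed markers of CD4 T cells, which did not move together. Of 5 tested in young TRM against young TCR, Foxp3 and Ikzf2 rose, and Trat1 and Zbtb7b fell. Cd4 had 12.4 CPM in young TRM, against 10.5 CPM in young TCR. In aged TRM against young TRM 0 rose and 1 fell, Foxp3. The part of Foxp3 or of such cells in the level of Lrrc32 was not tested. The call of Lrrc32 in young TRM against young TCR ended with totals only (log2 ratio 0.98), a pseudocount of 5 (0.83), the deposited TPM (0.97) and column 2 alone (0.88). The calls of Ltbp3 and Tgfb3 ended with a pseudocount of 5 in both comparisons, and that of Ltbp3 in aged TRM against young TRM also with the deposited TPM and column 2 alone (both 0.94).

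Integrins move in the membrane with tetraspanins and other partners, a list of 19 genes of which 18 were tested in each comparison. In young TRM against young TCR 0 rose and 3 fell, with a list median of -0.37, where 3.6% of all genes tested were lower. The tetraspanin gene Tspan32 had 5.42 CPM in young TRM, against 39.96 CPM in young TCR, Cd81 had 7.38 CPM, against 42.9 CPM, and Tspan4 had 3.24 CPM, against 13.7 CPM. The integrin-associated protein Cd47 had 307 CPM in young TRM, against 327 CPM in young TCR, and the tetraspanin Cd151, a laminin receptor partner, had 7.52 CPM, against 6.12 CPM. In aged TRM against young TRM the median was 0.17. There 1 gene rose and 0 fell, where 2.25% of all genes tested were higher. That was Cd63, a tetraspanin of lysosomes and platelet granules, with 6.05 CPM in aged TRM, against 2.13 CPM in young TRM. Its call ended with column 1 alone (log2 ratio 0.89) and with a pseudocount of 5 (0.63).

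**Figure D4:**
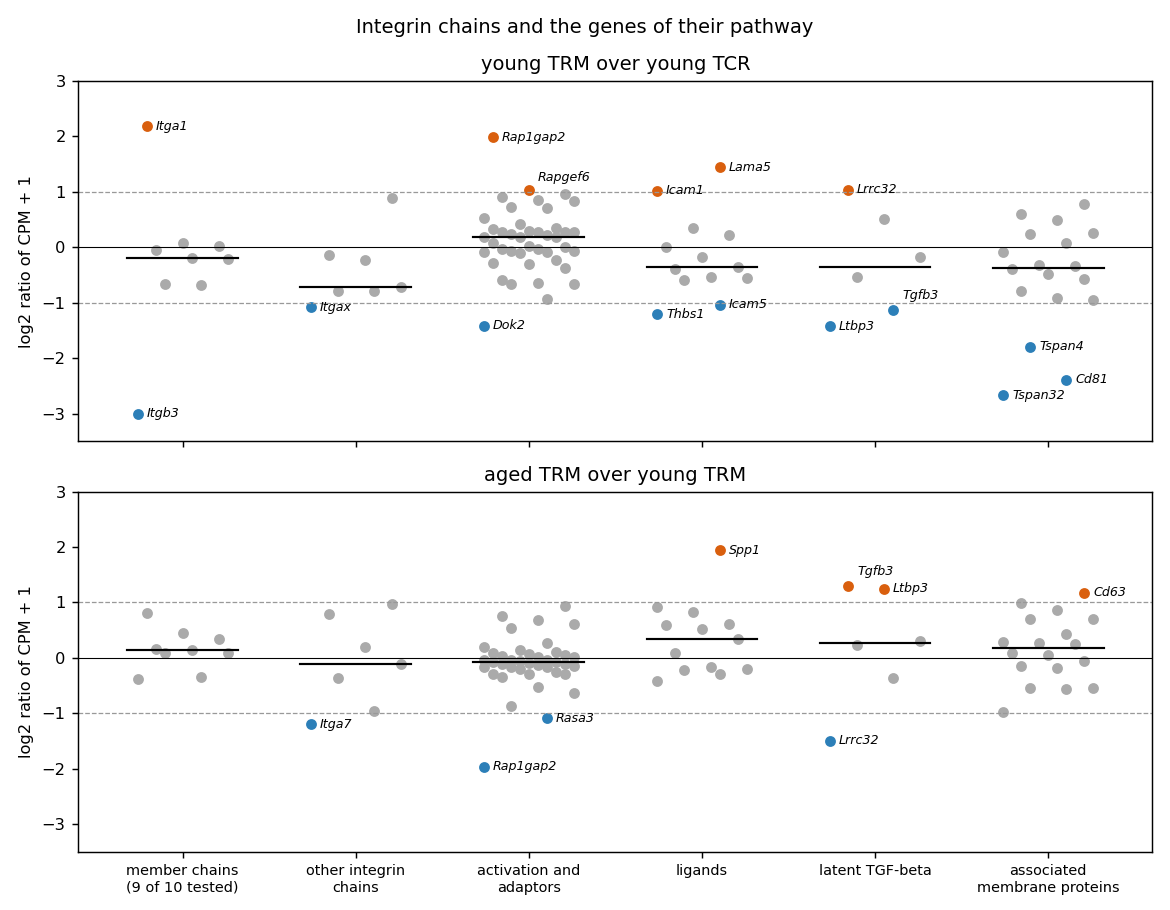
Log2 ratios (CPM plus 1) for the chains and for 5 lists of related genes in young TRM over young TCR and in aged TRM over young TRM, where each point is a tested gene, black lines are list medians and dashed lines mark 2-fold. Orange and blue points, with names, are genes that rose or fell. Itgb3 and the tetraspanins Tspan32 and Cd81 lie lowest in the upper panel, and in the lower panel the member chains lie between the dashed lines.

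Genes of at least 10 CPM in at least 1 sample, 9209 in all, were searched for the patterns nearest to the 2 chains that had passed the limit, by the distance between their log2 ratios in both comparisons over 3 samples. Nearest to Itga1 were Klri2 (distance 0.163), an NK receptor gene with 18.9 CPM in aged TRM, 14.7 CPM in young TRM and 2.17 CPM in young TCR, then Neb (0.177) and Serpina3f (0.311). Nearest to Itgb3 were Ptgir (0.254), the prostacyclin receptor gene with 1.28 CPM in aged TRM, 0.568 CPM in young TRM and 10.3 CPM in young TCR, then Kremen2 (0.275) and Ston2 (0.294). The pseudocount of 1 shrinks the ratios of scarce genes, so likeness on this scale need not hold for plain ratios. Itga1 had 4.54 CPM in young TRM, against 0.222 CPM in young TCR, and Ptgir reached 10 CPM in young TCR alone. With 3 samples, such likeness describes these libraries only.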

How the data were processed

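RNA was measured in 3 samples of cultured mouse CD8+ T cells, 1 per group. Per the labels, RNA was cleaned on columns and standard Illumina libraries were sequenced on a HiSeq instrument. Bowtie and the assembly GRCm38 (mm10) are named in the submitters' processing notes. The sources used here name neither the counting program nor its annotation, nor how reads shared between genes were treated. The deposited table held estimated counts and TPM values, both made by the authors, in numbered columns per gene. Another 24 value columns were not used here. Of 17121 gene IDs 17071 matched the RefSeq table of GRCm38.p6, and 23 symbols turned into dates were restored from it.

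The estimated counts were rounded, the 2 columns of a sample summed, and the sums scaled by TMM (edgeR 4.0.16, R 4.3.3). Log2 ratios of CPM plus 1 used Python 3.11.15, pandas 2.3.3, numpy 2.4.6 and scipy 1.17.1. Intervals are Clopper-Pearson intervals of the split of reads between both samples. For genes of many reads the variance between a sample's columns was 2.31 to 3.04 times the counting variance, so these intervals are too narrow even for repeat columns. The calling rule was applied to all genes. Alternatives were scaling by totals or by DESeq2 1.42.0 size factors, pseudocounts of 0.25 and 5, no filter or one of 10 CPM, the deposited TPM, and each column alone.

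The 10 chains and the gene lists were chosen with earlier results of these data known. All 10 chains are named, as are up to 4 called genes of each related list per comparison, the CD103 pair and the 3 nearest patterns of each called chain. Itga5, Itga3, Itga2b, Tln1, Fermt3, Cd47, Cd151, Cerkl and the single marker genes were added after their values were seen.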

Additional observations from a re-analysis of the deposited data

How the results depend on the processing

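In the 2 comparisons, 157 log2 ratios of the chains were recomputed under 9 alternatives, and 154 kept their direction and their side of the 2-fold limit. The filter settings change which genes are assessed and not their ratios. For the chains that stayed assessed they therefore repeat the main result and add nothing to this count as a check. The rise of Itga1 ended with a pseudocount of 5 (log2 ratio 0.87), where the chains past the limit in young TRM against young TCR fell to 1, as they did with a filter of 10 CPM (1), which leaves Itga1 out. Itgav in that comparison turned to -0.036 with totals only and -0.026 with column 2 alone. Itgb3 ranged from -3.18 to -2.85. In aged TRM against young TRM the count of chains was 0 under each of these alternatives. Over all genes, 901 called in young TRM against young TCR became 486 with a pseudocount of 5 and 583 with a filter of 10 CPM. In aged TRM against young TRM, 393 became 149 with a pseudocount of 5, 620 with a pseudocount of 0.25 and 214 with a filter of 10 CPM. Of 23 calls in the related lists, 13 were lost under at least 1 alternative. Depth limits Itgb8 (at most 3 reads) and Itga1 in young TCR (9 reads). No paired analysis was possible because each group holds 1 sample.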
